A study of Homo sapiens with 10 samples.

Results

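The EGR, NR4A and IER genes are immediate early genes, which cells transcribe within minutes of a stimulus without needing new protein synthesis. The 10 genes were taken by name from the deposited gene table, which lists 20263 genes: EGR1, EGR2, EGR3, NR4A1, NR4A2, NR4A3, IER2, IER3, IER5 and IER5L. RNA sequencing measured them in PANC-1, a long-established human cell line derived from a carcinoma of the pancreas. One group of 5 libraries (LY-1 to LY-5) came from cells given 20 µM lycorine for 24 h, and the other group of 5 (NC-1 to NC-5) from cells given DMSO, the solvent control. Lycorine is an alkaloid of Amaryllidaceae plants known to inhibit protein synthesis. Both groups share the cell line, and no genetic change is named for either.

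EGR1, EGR2 and EGR3 are zinc finger transcription factors that bind GC-rich sites and are switched on mainly through ERK signalling and serum response factor. NR4A1, NR4A2 and NR4A3 are orphan nuclear receptors that act without a known natural ligand, as monomers or as dimers. The IER genes encode small proteins of other kinds: IER2, IER5 and IER5L share an N-terminal domain, and IER3 is a stress-inducible regulator of apoptosis. Transcripts of this class are short-lived, and inhibitors of translation are known to stabilise many of them.

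The genes' start regions differ in the sites for these inputs. The promoter table from RefSeq (GRCh38.p14) holds 7 of the 10 genes with 10 start sites, from 250 bases before to 50 after each start. The 4 windows below run from base -160 to base -11, the base before the start being -1. They show EGR1 and EGR2, which carry serum response and cAMP response letters, and the paralogs IER5 and IER5L, which do not. A link of these letters to changes in level was not tested. Capitals mark CArG boxes (the serum response factor site) and TGACG cores of the cAMP response element, on either strand.
EGR1, chr5:138465319-138465468, plus strand: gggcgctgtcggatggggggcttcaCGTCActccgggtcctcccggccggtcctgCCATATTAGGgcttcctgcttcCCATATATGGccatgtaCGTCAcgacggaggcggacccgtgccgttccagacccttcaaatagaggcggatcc
EGR2, chr10:62816377-62816526, minus strand: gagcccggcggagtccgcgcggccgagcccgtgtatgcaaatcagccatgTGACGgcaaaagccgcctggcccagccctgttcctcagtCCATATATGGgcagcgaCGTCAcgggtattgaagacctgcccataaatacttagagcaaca
IER5, chr1:181088540-181088689, plus strand: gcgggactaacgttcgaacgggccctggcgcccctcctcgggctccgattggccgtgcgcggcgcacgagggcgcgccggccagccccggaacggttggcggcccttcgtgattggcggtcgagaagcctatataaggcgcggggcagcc
IER5L, chr9:129178272-129178421, minus strand: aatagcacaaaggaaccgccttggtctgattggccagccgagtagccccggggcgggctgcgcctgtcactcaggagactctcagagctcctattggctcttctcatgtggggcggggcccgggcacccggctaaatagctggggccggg
EGR1 has CArG boxes at -105 and -83 and cAMP response cores at -135 and -66. This EGR2 start, the third of 3 in the table, has a CArG box at -71 and cAMP response cores at -110 and -54. Over all 35116 promoters of the table, 1.29% hold a CArG box and 24.6% hold that core. It was also found in NR4A3 (4 matches) and IER2 (1 match), and the GC box GGGCGG in 6 of the 10 promoters against 44.95% of all. No match to the full element TGACGTCA (1.85% of all promoters), the EGR site GCGTGGGCG (0.794%) or the NR4A monomer site AAAGGTCA (1.22%) was found in the 10 promoters. The ETS site CGGAAGT (6.83%) matched once, in IER2, where it overlaps a GC box, and the NF-kB site (11.3%) once, in EGR2. The AP-1 site TGANTCA (7.71%), the TATA letters TATAAA (11.5%) and the heat shock element (0.490%) had no match. Both strands were searched, and a match describes letters only.

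**Figure D1:**
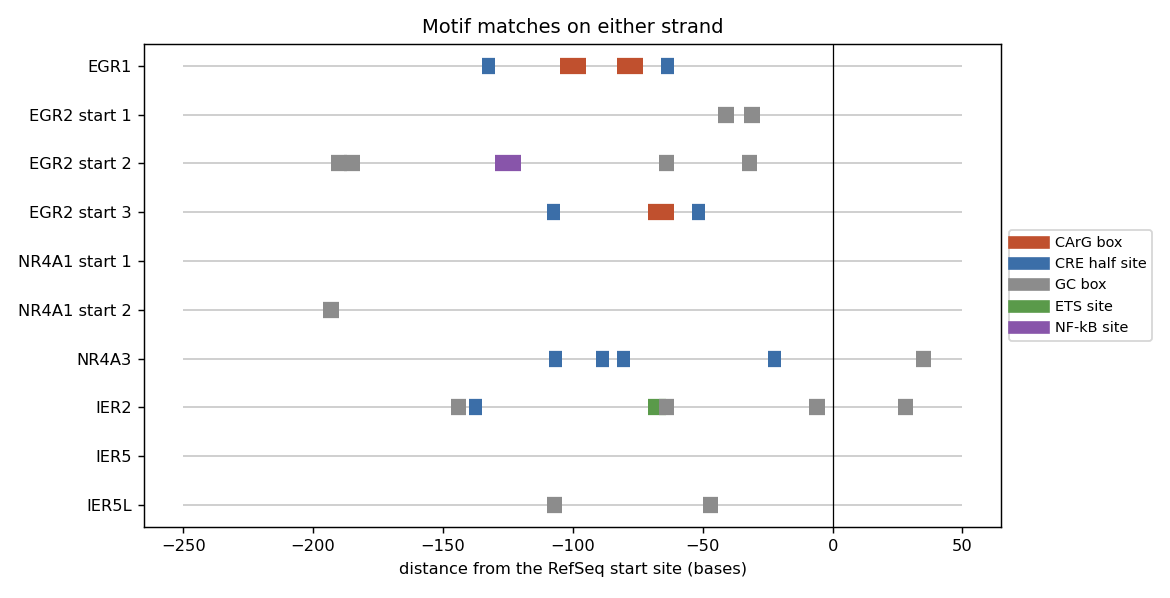
Motif matches in the 10 RefSeq promoters of 7 genes, by distance from the start site in bases; CRE in the legend is the cAMP response core. Among these promoters, CArG boxes lie only in EGR1 and 1 start of EGR2, and the lines of IER5 and NR4A1 start 1 are empty. EGR3 was not searched.

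Values are TPM, each gene's share of a library's transcripts after normalisation for transcript length. A lower TPM cannot tell fewer expressing cells from less RNA per cell. Fold changes and standard errors are on the log2(TPM + 1) scale, LY over DMSO, which understates changes of low genes, and adjusted p-values come from limma with Benjamini-Hochberg adjustment over 11663 genes. Those genes had at least 1 TPM in at least 5 of the 10 libraries. Whether each library had its own culture is not stated, so p-values measure only the spread between these samples. In NC-2, 37.5% of the TPM was mitochondrially encoded, against 12.2% to 14.1% in the other DMSO libraries and 6.43% to 14.9% under LY. NC-2 was the lowest DMSO library for 63.4% of tested genes. KRT8 and KRT18, keratins of simple epithelia, summed with 4 other epithelial markers to 1857 to 2601 TPM in DMSO and 2146 to 2627 in LY, while KRT7 and CDH1 stayed below 1 TPM in every library. Within that list KRT18 rose from 714 ± 70.2 to 1010.03 ± 66.8 TPM and KRT19, a ductal keratin, fell from 148 ± 16.6 to 21.0 ± 3.47 (SD, n = 5; log2 fold change -2.77, limma adjusted p = 1.48e-08). Acinar, endocrine and leukocyte markers (8, 6 and 5 genes) were below 1 TPM in every library. The 4 endothelial markers summed to 0.0988 to 0.535 TPM in DMSO and 2.74 to 3.32 in LY, nearly all of it CDH5, with PECAM1 and KDR at 0. The 5 fibroblast markers summed to 2.64 to 4.12 TPM in DMSO and 0.430 to 1.01 in LY, mostly COL1A1, with DCN, LUM and FAP at 0. A fit with mitochondrial genes removed is among the alternatives given at the end. Beyond that fit, the part of the mitochondrial share and of these markers in the results was not tested.

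Of the 10 genes, 7 were tested, each present at 1 TPM or more in at least 4 libraries of both groups. NR4A1 and IER5 rose, EGR3, IER3 and IER5L fell, and EGR1 and IER2 did not pass the test. EGR2, NR4A2 and NR4A3 were too low to be tested. The 5 changed genes are 71.4% of the 7, against 64.6% of all tested genes (39.8% up and 24.9% down), so the share itself does not set the family apart from a response that reached most genes. The libraries of the groups did not overlap for 4 of the 7, against 49.4% of all tested genes. The median log2 fold change of the 7 genes was -0.86, against 0.17 over all tested genes. That median is the value of IER2, which did not pass, and the 7 genes moved both ways, so it describes no shared fall.

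**Figure D2:**
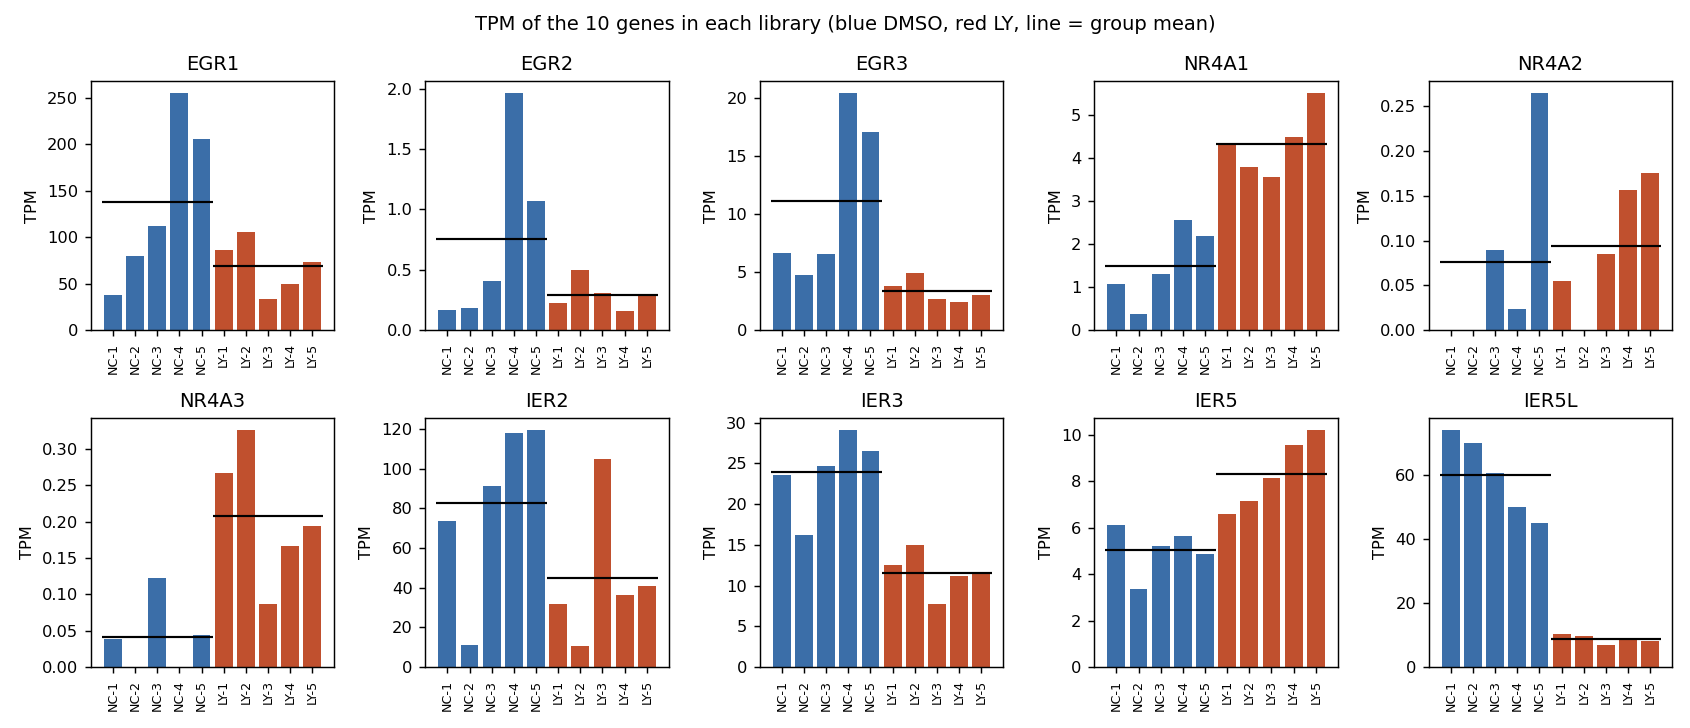
TPM of each of the 10 genes in each library, with DMSO in blue, LY in red and group means as lines; each panel has its own axis from 0. NC-4 and NC-5 are the tallest DMSO bars for EGR1, EGR2, EGR3, NR4A1, IER2 and IER3, and the IER5L bars drop in all 5 LY libraries.

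EGR1 is the prototype of its family, induced by growth factors, stress and injury (chr5:138465490-138469315, plus strand, hg38; 2 exons). Its TPM was 37.4, 79.3, 112, 255 and 206 in NC-1 to NC-5 and 86.5, 105, 33.2, 49.2 and 72.9 in LY-1 to LY-5. NC-3, NC-4 and NC-5 were above every LY library, but NC-1 was below 4 of the 5 and the groups overlapped. The mean was 138 ± 90.2 TPM (SD, n = 5) in DMSO and 69.4 ± 28.8 (SD, n = 5) in LY. The log2 fold change of -0.79 ± 0.48 (SE) did not pass the limma test (adjusted p = 0.163), and a two-sided exact permutation test gave p = 0.198. Without NC-1, the lowest DMSO library for this gene, the change was -1.18 with an adjusted p = 0.0217 in limma. No other library left out gave a call for EGR1, and without NC-4 the change was -0.50.

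EGR3, a paralog on chromosome 8 that is itself a known target of EGR1 in several cell types, fell. It was at 6.67, 4.78, 6.58, 20.4 and 17.1 TPM in NC-1 to NC-5 and at 3.77, 4.90, 2.68, 2.43 and 3.054 in LY-1 to LY-5. Again NC-4 and NC-5 were the high controls; 4 of 5 LY libraries were below the lowest control, NC-2, and LY-2 lay just above it. The mean went from 11.1 ± 7.13 to 3.37 ± 0.993 TPM (SD, n = 5 each), a log2 fold change of -1.30 ± 0.34 (SE, limma adjusted p = 0.00527). The two-sided exact permutation test gave p = 0.0159, and the change was between -1.62 and -1.04 over all alternatives run. EGR1 over EGR3, a ratio of TPM values, was 5.61 to 17.0 in DMSO and 12.4 to 23.9 in LY libraries, so it overlapped between groups.

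EGR2, which drives myelination and also acts in T cells, was at 0.165, 0.181, 0.408, 1.96 and 1.07 TPM in NC-1 to NC-5. In LY-1 to LY-5 it was at 0.223, 0.499, 0.305, 0.156 and 0.283 TPM. It reached 1 TPM only in NC-4 and NC-5, the libraries with the most EGR1 and EGR3, and was not tested. The full gene record spans chr10:62811996-62919900 on the minus strand, and the transcript used here spans 4360 bases. EGR4, the fourth family member, was counted with the other immediate early genes, and is named here after its values were seen. It rose from 0.786 ± 0.499 to 2.29 ± 0.676 TPM (SD, n = 5; log2 fold change 0.90 ± 0.20, limma adjusted p = 0.00204), with overlapping groups. The lowest LY library was at 1.45 TPM, while among controls only NC-4 (1.49) and NC-5 (1.02) reached 1 TPM. EGR4 thus met the filter through the LY libraries, where it was high, which limits this test.

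NR4A1, also called NUR77, is a receptor tied to apoptosis and metabolic control (chr12:52022832-52059507, plus strand; 8 exons). It was at 1.07, 0.385, 1.31, 2.57 and 2.19 TPM in NC-1 to NC-5 and at 4.33, 3.799, 3.56, 4.499 and 5.52 in LY-1 to LY-5. Each LY library was above each control. The mean of 1.505 ± 0.881 TPM rose to 4.34 ± 0.762 (SD, n = 5 each), 2.89-fold in TPM. The log2 fold change was 1.16 ± 0.23 (SE, limma adjusted p = 0.000762), and the two-sided exact permutation p of 0.00794 is the smallest that 5 against 5 libraries allow. Among the controls NC-4 and NC-5 were again the highest and NC-2 the lowest. EGR1 over NR4A1 was 35.2 to 206 in DMSO and 9.33 to 27.7 in LY libraries, without overlap.

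NR4A2, a receptor needed by dopamine neurons, was below 1 TPM everywhere: 0, 0, 0.0898, 0.0239 and 0.265 TPM in NC-1 to NC-5 and 0.0549, 0, 0.0849, 0.157 and 0.175 in LY-1 to LY-5. NR4A3 was at 0.0388, 0, 0.123, 0 and 0.0439 TPM in NC-1 to NC-5 and at 0.268, 0.327, 0.0862, 0.167 and 0.195 in LY-1 to LY-5. For NR4A3, 4 of 5 LY libraries were above the highest control, NC-3. With no filter on low values its log2 difference of 0.21 passed (limma adjusted p = 0.00699). At these levels the depth, which TPM does not keep, limits what can be said. NR4A2 lies at chr2:156324432-156342348 on the minus strand and NR4A3 at chr9:99821855-99866891 on the plus strand.

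IER2, a nuclear protein induced by growth factors, lies at chr19:13150415-13154908 on the plus strand (1 exon in the transcript used). It was at 73.6, 11.2, 91.3, 118 and 120 TPM in NC-1 to NC-5 and at 31.8, 10.3, 105, 36.1 and 40.8 in LY-1 to LY-5. Both groups were widely spread: NC-2 was the lowest control, and under LY the highest library was LY-3 and the lowest LY-2. The means were 82.9 ± 44.5 TPM in DMSO and 44.8 ± 35.6 in LY (SD, n = 5 each), and the groups overlapped. The log2 fold change was -0.86 ± 0.67 (SE, limma adjusted p = 0.277, two-sided exact permutation p = 0.333). Without NC-2 it was -1.47 with an adjusted p = 0.0183 in limma, and with array weights, which give an atypical library less weight, -1.42 with 0.00901. Leaving out LY-2 moved it to -0.44.

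IER3, also called IEX-1, is a target of NF-kB and p53 that modulates cell death and ERK signalling (chr6:30743199-30744554, minus strand; 2 exons). It was at 23.6, 16.2, 24.6, 29.2 and 26.5 TPM in NC-1 to NC-5 and at 12.5, 15.0, 7.78, 11.1 and 11.4 in LY-1 to LY-5. No LY library reached the lowest control, NC-2. IER3 fell from 24.0 ± 4.87 to 11.5 ± 2.60 TPM (SD, n = 5 each), with a log2 fold change of -0.996 ± 0.18 (SE, limma adjusted p = 0.000405).

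IER5 and IER5L are paralogs, and they moved in opposite directions. IER5, a target of heat shock factor HSF1 and of p53 that promotes HSF1 activity (chr1:181088712-181092899, plus strand; 1 exon), was at 6.11, 3.36, 5.21, 5.63 and 4.88 TPM in NC-1 to NC-5. In LY-1 to LY-5 it was at 6.58, 7.13, 8.15, 9.56 and 10.2 TPM, each above each control. It rose from 5.04 ± 1.04 to 8.33 ± 1.55 TPM (SD, n = 5 each), a log2 fold change of 0.63 ± 0.15 (SE, limma adjusted p = 0.00348).

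IER5L, an intronless gene of little-studied function (chr9:129175552-129178262, minus strand), was at 74.1, 69.9, 60.7, 49.98 and 44.9 TPM in NC-1 to NC-5. In LY-1 to LY-5 it was at 10.4, 9.72, 6.78, 8.77 and 8.17 TPM, so the highest LY library was far below the lowest control. It fell from 59.9 ± 12.5 to 8.77 ± 1.40 TPM (SD, n = 5 each), 6.83-fold in TPM. The log2 fold change of -2.63 ± 0.16 (SE, limma adjusted p = 7.08e-08) was larger in size than that of 99.2% of tested genes and ranked 59 among decreases. IER5 over IER5L was 0.0480 to 0.113 in DMSO and 0.633 to 1.25 in LY libraries, without overlap. NC-4 and NC-5, the high controls for the EGR genes, were the lowest controls for IER5L. For IER3, IER5 and IER5L the two-sided exact permutation p was 0.00794.

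**Figure D3:**
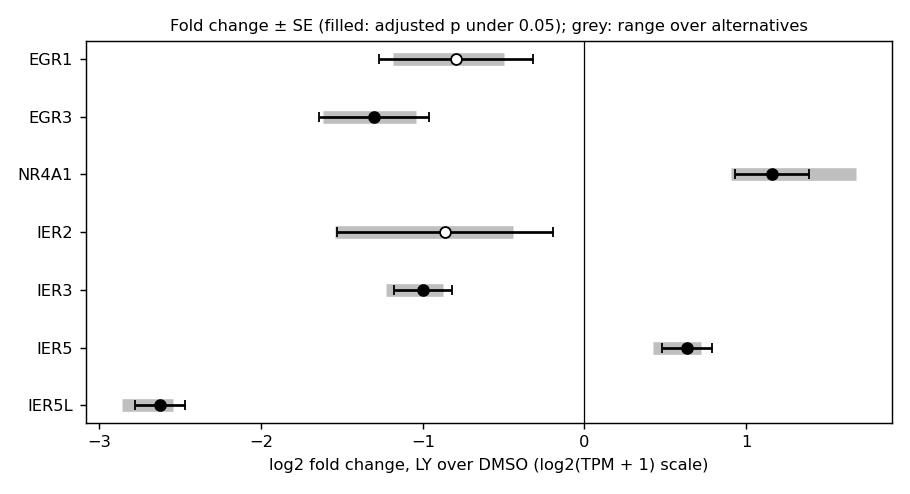
Log2 fold change, LY over DMSO, of the 7 tested genes with its standard error; filled points passed the test, open points did not, and grey bars span the values under all alternatives run. The bars of IER5L (-2.86 to -2.55) and NR4A1 (0.91 to 1.68) stay clear of 0, and EGR1 and IER2 have the widest errors.

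The spread between control libraries was itself large for several of these genes. The SD of log2(TPM + 1) between controls was 1.39 for IER2, 1.10 for EGR1, 0.843 for EGR3 and 0.543 for NR4A1, against a median of 0.234 over all tested genes. These 4 genes were in the top 10% of tested genes by that SD (above 0.476), as were 15 of 43 tested other immediate early genes. IER2 ranked 22 and EGR1 ranked 48 of 11663. IER3, IER5 and IER5L had control SDs of 0.310, 0.272 and 0.304. Under LY, IER2 (1.15) and EGR1 (0.655) were again in the top 10% (above 0.371), and NR4A1 was near the middle (0.200, median 0.188).

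NC-4 and NC-5 were the 2 highest controls for 5 of the 7 tested genes, all but IER5 and IER5L. This held for 28 of the 43 tested other immediate early genes and for 13.9% of all tested genes. NC-2 was the lowest control for 5 of the 7, beside 63.4% of tested genes. Under LY, LY-3 was lowest for 4 of the 7 (16.3% of tested genes) and LY-2 highest for 3 (16.1%). The labels name no batch for these libraries.

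**Figure D4:**
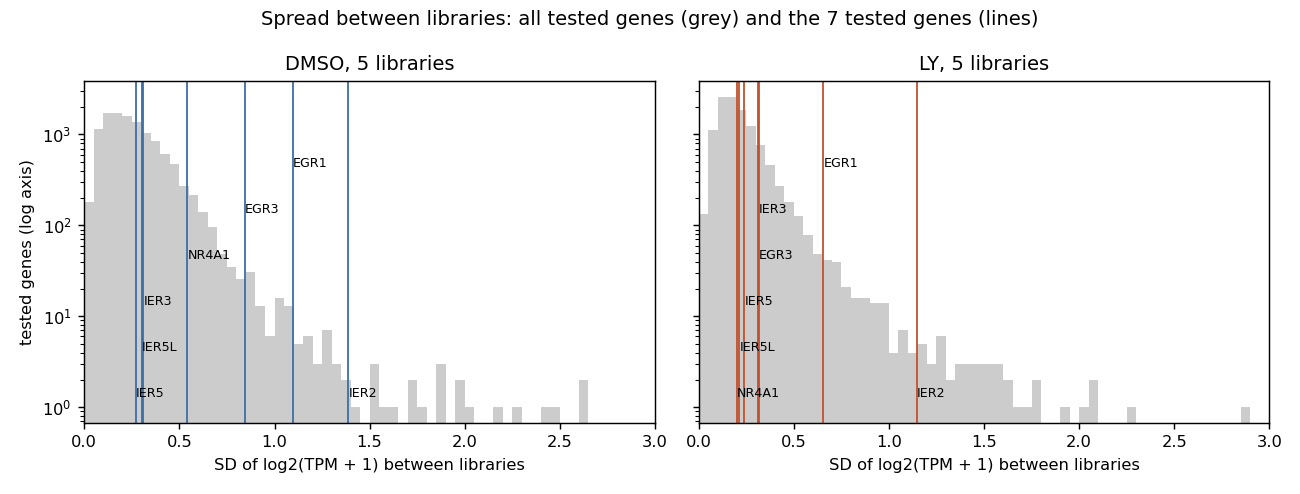
SD of log2(TPM + 1) between the 5 libraries of each group for all tested genes (grey histogram, log count axis) with a line for each of the 7 tested genes. IER2 and EGR1 lie in the far right tail in both groups, whereas NR4A1 is in the tail in DMSO only.

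TPM is per length, so levels can be ordered between genes. In DMSO the order of mean TPM was EGR1, IER2, IER5L, IER3, EGR3, IER5, NR4A1, EGR2, NR4A2 and NR4A3. The ranges of neighbours were separate only between IER5L and IER3 and between IER5 and NR4A1. In LY the order was EGR1, IER2, IER3, IER5L, IER5, NR4A1, EGR3, EGR2, NR4A3 and NR4A2. There neighbours were separate only between IER5 and NR4A1 and between EGR3 and EGR2. EGR1 had the highest mean in both groups, though its libraries overlapped those of IER2 in each, and NR4A1 stood above EGR3 in mean TPM in LY only.

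Among 45 other immediate early genes, 43 were tested: 30 rose, 4 fell and 9 missed the threshold, with a median log2 fold change of 1.09. Over all tested genes 39.8% rose and 24.9% fell. This list and those that follow were chosen with earlier results of these data known, so their counts are a description. GEM and EGR4 met the filter through the LY libraries. The count of falls was 7 when TPM was rescaled by median ratios, and rises stayed at 29 or 30 under each rescaling. By size of change, CCN1, a secreted matrix protein, led the rises (101 ± 53.8 to 967 ± 69.5 TPM, log2 fold change 3.40) and ID1, an inhibitor of helix-loop-helix factors, the falls (326 ± 54.2 to 46.2 ± 3.81 TPM, -2.78). FOS, named after its values were seen, fell with EGR3 (16.5 ± 10.5 to 3.84 ± 1.25 TPM, log2 fold change -1.63, limma adjusted p = 0.00439). NFKBIZ and ID3 were the other 2 falls. FOS was alone in this among the FOS and JUN genes of the list. FOSL1 (log2 fold change 2.60), JUN (2.40) and JUND (0.49) rose, and FOSB, FOSL2 and JUNB did not pass.

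**Figure D5:**
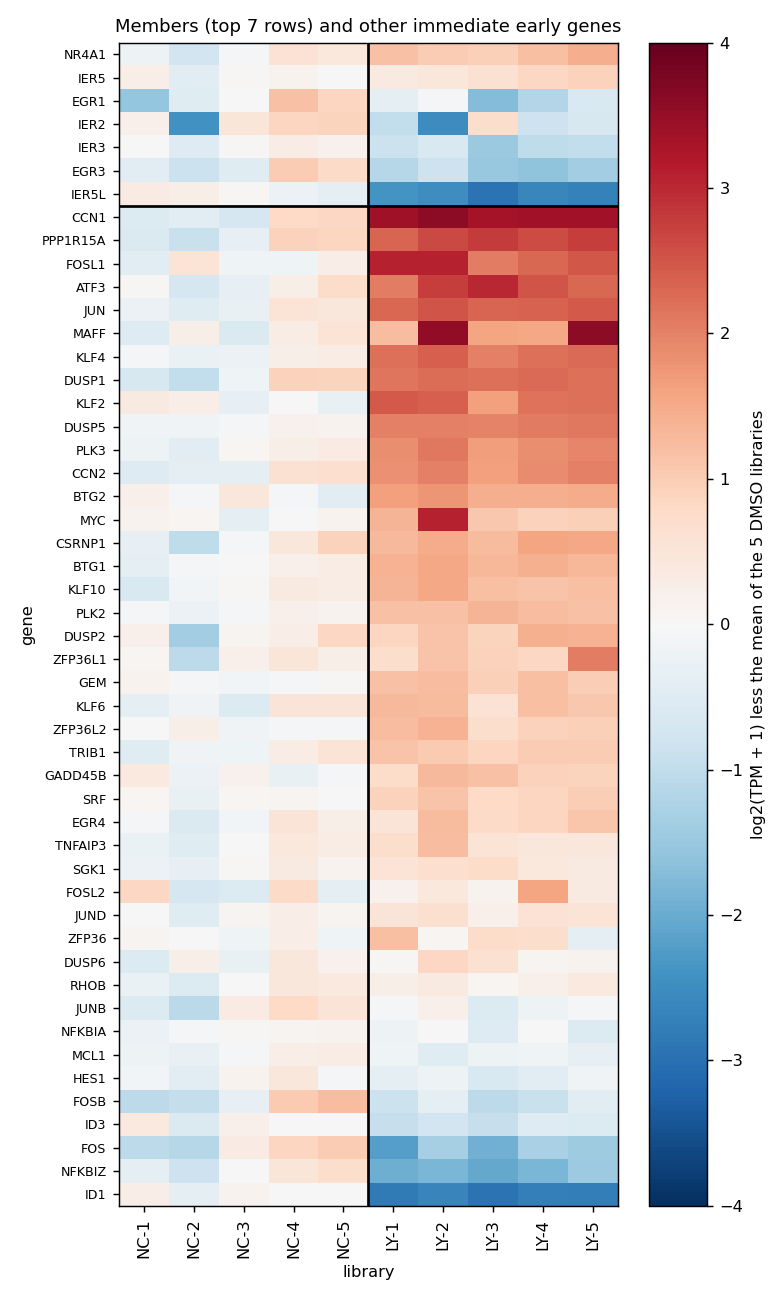
Log2(TPM + 1) of the 7 tested genes (top) and 43 other immediate early genes in each library, less the mean of the 5 DMSO libraries; the colour scale ends at ±4. Most rows below the line are red in all LY libraries, while IER5L, ID1 and NFKBIZ are blue there.

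Genes of the kinases and factors known to act on EGR and IER promoters moved both ways. The counts here and in the lists that follow stand beside 39.8% up and 24.9% down over all tested genes. In the ERK cascade 7 of 18 tested genes rose, 3 fell and 8 missed the threshold (median log2 fold change 0.19). BRAF, the kinase at its head, rose from 22.0 ± 2.21 to 67.8 ± 10.6 TPM, and RPS6KA4, a histone H3 kinase that ERK and p38 activate, fell from 102 ± 28.0 to 32.0 ± 5.19. The falls in that cascade were 6 without NC-2 and 6 with array weights, and under quantile normalization 5 rose and 7 fell. In the p38 and JNK cascade 9 of 14 rose and 5 fell (median 0.48), against 6 rises under each rescaling, 3 falls without NC-3 and 8 falls with no filter on low values. MAPK11, a p38 kinase, fell from 9.39 ± 3.10 to 1.38 ± 0.398 TPM, and MAPKAPK3, a kinase downstream of p38, rose from 13.9 ± 2.74 to 33.3 ± 4.27.

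Of 6 tested genes for serum response factor and its partners, 3 rose and 1 fell (median 0.61). ELK4, a ternary complex factor, rose from 9.10 ± 0.408 to 18.5 ± 1.26 TPM, and MRTFB, an actin-regulated coactivator, fell from 7.15 ± 2.13 to 3.09 ± 0.994. Of 11 genes for CREB and its coactivators, 7 rose and 1 fell (median 0.71). ATF1, a CREB relative, rose from 22.9 ± 2.52 to 56.1 ± 2.95 TPM, CREBBP, an acetyltransferase that binds CREB, rose from 34.0 ± 3.09 to 82.6 ± 7.37, and PRKACA, a protein kinase A catalytic subunit, fell from 111 ± 9.52 to 76.1 ± 9.13.

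The 2 corepressors that bind EGR proteins split. NAB2 rose from 24.9 ± 7.02 to 46.1 ± 7.15 TPM (log2 fold change 0.91, limma adjusted p = 0.00286), and NAB1 fell from 37.5 ± 4.34 to 23.6 ± 7.08 (-0.69, limma adjusted p = 0.00677), both without overlap of the groups. Of 18 tested genes listed as EGR targets, 10 rose, 1 (NAB1) fell and 7 did not pass (median 0.64), and 2 fell without NC-2. GADD45A, a growth arrest gene, rose from 49.0 ± 13.4 to 467 ± 142 TPM and HBEGF, an EGF receptor ligand, from 2.94 ± 1.02 to 16.7 ± 1.27. Many of these genes have other regulators.

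Of 12 tested dimer partners and coregulators of NR4A receptors, 5 rose and 4 fell (median -0.034). RXRA, the retinoid receptor that pairs with NR4A1 and NR4A2, fell from 43.6 ± 10.2 to 15.0 ± 2.22 TPM (log2 fold change -1.45, limma adjusted p = 1.47e-05), and RCOR1, a corepressor subunit, rose from 32.6 ± 1.79 to 67.1 ± 4.89. Of 14 tested partners of IER proteins, mainly protein phosphatase 2A subunits, 10 rose, 2 fell and 2 did not pass (median 0.49), against 6 rises under upper-quartile scaling. PPP2R5B rose from 9.66 ± 2.54 to 29.3 ± 2.86 TPM, PPP2R2A from 57.2 ± 26.7 to 162 ± 77.4, and PPP2R5D fell from 45.8 ± 3.87 to 26.6 ± 5.10.

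The genes share a compact structure, apart from the NR4A group, in GENCODE release 29. IER2, IER5 and IER5L have 1 exon, and EGR1, EGR2, EGR3 and IER3 have 2, against a median of 9 over 11564 tested genes with a coding transcript, of which 6.82% have 2 or fewer. NR4A1 and NR4A2 have 8 exons and NR4A3 has 9. Most carry the AU-rich pentamer ATTTA in the 3' UTR, a motif found in short-lived transcripts: IER5 and NR4A3 have 10 each, IER3 6, NR4A2 4, EGR3, NR4A1 and IER5L 3, EGR2 2, EGR1 1 and IER2 0. The median over the 11564 genes is 2, and 40.3% have 3 or more. IER5 alone of the 10 holds the nonamer TTATTTATT, in 3 overlapping copies, against 8.24% of the 11564 genes with at least 1. Of the 43 tested other immediate early genes, 27.9% hold the nonamer, 62.8% have 3 or more pentamers and 25.6% have 2 or fewer exons. A link of the nonamer to direction of change was not tested. The IER5 stretch is shown with its copies in capitals.
IER5, chr1:181092447-181092476, plus strand, hg38: cttcctTTATTTATTTATTTATTtaattat
Among the tested genes that changed, IER5 (10 pentamers) and NR4A1 (3) rose, and IER3 (6), EGR3 (3) and IER5L (3) fell. Their 3' UTRs are 3013, 562, 737, 2814 and 1286 bases long, in that order. A link of pentamer counts to direction was not tested. GENCODE places antisense or noncoding genes over EGR3, NR4A1, IER2, IER3 and IER5L, none of them in the table. Whether counting used strand is not given in the sources used here, so reads of those partners cannot be told apart.

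Likeness of pattern was measured by Pearson's r of log2(TPM + 1) over the 10 libraries, which share group and library effects, as a description. The genes most like EGR1 were DEDD (0.923), FOSB (0.894) and RAB43 (0.842), with EGR3 ranking 5 (0.811). With group means subtracted KLF10 (0.933), DEDD (0.905) and PLSCR1 (0.898) led, EGR3 had 0.811 and IER2 0.0036. For NR4A1 the most alike were EIF1 (0.978), CSRNP1 (0.973) and DUSP1 (0.971), and with group means subtracted CXCL2 (0.977), VWA1 (0.961) and WNT5B (0.959). For IER2 they were IARS2 (0.974), RPS3A (0.948) and DIP2C (0.948), and with group means subtracted IARS2 (0.978), ANAPC5 (0.976) and GFPT1 (0.975). No member was among the 3 genes most like EGR1, NR4A1 or IER2.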

How the data were processed

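The authors deposited 1 table of TPM, with 1 column per library and human Ensembl gene IDs. The labels list the builds GRCm38, mm10 and hg38 with no role, per the submitters' processing notes. How reads were aligned, counted and annotated is not given in the sources used here. Each column summed to 999932 to 999967, and TPM keeps no read depth, so no counting intervals are given. LY columns were matched to samples by title. Columns NC-1 to NC-5, a name in no title, were assigned to DMSO as a group. The series text names 4 samples per group and the labels 5; none of the 10 columns was left out. For RNA extraction the series text names Trizol and the labels name an RNeasy kit.

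Symbols came from a name table (19761 genes) and GENCODE release 29 (463), and 39 genes stayed unnamed. limma 3.58.1 in R 4.3.3 (mean-variance trend, group as the only term) was fitted to log2(TPM + 1) of 11663 genes with TPM of at least 1 in at least 5 libraries. Genes with an adjusted p under 0.05 were called changed. The fit was tested on simulated data. Exact permutation tests used all 252 assignments of libraries. The members and gene lists were chosen with earlier results of these data known. Beyond the members, the text names the 2 changed genes of each list with the largest change, the largest change the opposite way, and the 3 genes most like EGR1, NR4A1 and IER2; exceptions are stated. Alternatives varied the pseudocount, filter, scaling, moderation, weights and libraries.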

Additional observations from a re-analysis of the deposited data

Results flagged for a closer look

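NC-2 stood apart from the other 4 DMSO libraries in its mitochondrial share of TPM. The share was 37.49% in NC-2, against 14.12% in the nearest and 12.23% in the lowest of the others. The gap to the nearest library was 0.925 of the group's range, above Dixon's 95% critical value of 0.71 for 5 samples. None of the 20 groups of values of the 10 genes passed that value; chance passes about 1 in 20.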

How the results depend on the processing

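EGR3, NR4A1, IER3, IER5 and IER5L kept direction and call under every alternative in which they were tested, with log2 fold changes of -1.62 to -1.04, 0.91 to 1.68, -1.23 to -0.87, 0.42 to 0.72 and -2.86 to -2.55. With a minimum of 5 TPM, 5 members were tested: 1 rose (IER5) and 2 fell (IER3 and IER5L), because NR4A1 and EGR3 were no longer tested. EGR1 passed only without NC-1, and IER2 only without NC-2 (adjusted p = 0.0183), with array weights (0.00901) and without NC-2 with median-ratio scaling (-1.54, 0.0136), all in limma. The median log2 fold change of all genes was 0.17 as deposited, 0.034 with median ratios, 0.051 with quantiles and -0.058 with upper quartiles. The calls over all genes were 4639 up and 2899 down as deposited, and 3977 and 3756, 4055 and 3694, and 3452 and 4228 in that order. Removing mitochondrial genes gave 3871 and 3812. With upper quartiles the falls among the CREB genes and among the EGR targets were 3 each, not 1.

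No paired analysis was possible because the control columns carry numbers that no label ties to single samples, so the replicate block was not run. A further fit without NC-4 and NC-5 was tried after seeing the data. Its values are not given, because those libraries were picked by their high levels of EGR1 and related genes, which fixes the direction in which EGR1 moves. The depth of the libraries is unknown, which limits EGR2, NR4A2 and NR4A3 most.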
